A study of Arabidopsis thaliana with 6 samples.

Results

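PDF1.2, THI2.2 and SAG101 are genes of plant defence, taken here by name, each with 1 probe set that the probe table assigns to that gene alone. They are 3 of 13350 genes with such a probe set on the array. PDF1.2 (AT5G44420, probe set 249052_at) encodes a defensin, THI2.2 (AT5G36910, probe set 249645_at) a thionin, and SAG101 (AT5G14930, probe set 246600_at) a lipase-like protein of immune signalling and senescence, so SAG101 is not itself a defence peptide. The genes were chosen by their levels, their genotype difference and the spread of THI2.2 in these same arrays. For these genes those values are a description and carry no test.

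The arrays compare gapcp1gapcp2 double mutant seedlings with wild type seedlings, both of Arabidopsis thaliana ecotype Col-0. GAPCP1 and GAPCP2 encode glyceraldehyde-3-phosphate dehydrogenase of the plastid, an enzyme of glycolysis. Seedlings of both genotypes were 15 days old and had received 0.75 µM abscisic acid (ABA), a stress hormone, for 8 days, so no group was without ABA. Total RNA of whole seedlings went onto Affymetrix arrays, 3 for gapcp1gapcp2 and 3 for wild type, titled as biological replicates, and the kind of mutation in each gene is not given in the sources used here. A free-text label speaks of embryos, against all other labels, and was not used. Leaf and root genes were both measured in every array, with LHCB4.1 of the leaf antenna between 8970 and 9438 in gapcp1gapcp2 and between 8469 and 9736 in wild type. None of the seed markers had a probe set named in the table, so they were not analysed here, and neither were GAPCP1 and GAPCP2. Array medians lay between 107.7 and 112.2 in gapcp1gapcp2 and between 105.8 and 113.0 in wild type, in the linear intensity units of the deposited values. Arrays did not pair by their replicate number: across probe sets, the deviations from the genotype mean of gapcp1gapcp2 replicate 1 correlated at 0.59 with those of wild type replicate 2 and at -0.58 with those of wild type replicate 1.

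Defensins and thionins are small secreted peptides, rich in cysteine, that damage the membranes of fungi and bacteria. PDF1.2 is the usual marker of the jasmonate and ethylene branch of plant defence, which acts through the factors ERF1 and ORA59 and which ABA is known to counteract. SAG101 binds EDS1, and the pair relays signals from intracellular immune receptors of the TIR type. Wounding, pathogens and hormones are known to change the levels of such genes.

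PDF1.2 was not separated by genotype. Its intensity was 300.0, 182.3 and 218.1 in gapcp1gapcp2 replicates 1, 2 and 3, against 238.0, 290.9 and 228.8 in wild type replicates 1, 2 and 3. Both the highest and the lowest of the 6 arrays were mutant arrays, so the wild type values lay inside the range of the mutant. PDF1.2 averaged 233 ± 60.3 in gapcp1gapcp2 and 253 ± 33.5 in wild type (SD, n = 3 each). The log2 difference, mutant minus wild type, was -0.13 with a 95% interval of -0.53 to 0.27, from limma on log2(intensity + 16). That interval spans ratios of mutant over wild type from 0.69 to 1.21 on the same scale. Without gapcp1gapcp2 replicate 2 the difference was 0.025, and without gapcp1gapcp2 replicate 1 it was -0.31.

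THI2.2 had almost the same mean in both genotypes and the widest scatter of the 3 genes. Its intensity was 377.6, 91.9 and 236.3 in gapcp1gapcp2 replicates 1, 2 and 3, against 102.7, 393.4 and 209.9 in wild type replicates 1, 2 and 3. Each genotype thus had a high, a middle and a low array, and the groups overlapped almost completely. THI2.2 averaged 235.2 ± 143 in gapcp1gapcp2 and 235.3 ± 147 in wild type (SD, n = 3 each). The log2 difference was -0.012, with a 95% interval of -1.19 to 1.17, which spans ratios from 0.44 to 2.25. A change of 2-fold in either direction therefore lay inside the interval, so equal means do not show equal expression. The variance behind it was drawn by limma toward that of other probe sets of like intensity. For a gene that scatters as widely as THI2.2 this makes the interval narrower than its own spread alone would. With the robust setting of limma the interval of THI2.2 was -1.525 to 1.501. Leaving out 1 array moved the difference to between -0.46, without wild type replicate 1, and 0.50, without gapcp1gapcp2 replicate 2. It was 0.43 without wild type replicate 2 and -0.43 without gapcp1gapcp2 replicate 1.

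SAG101 was lower on average in gapcp1gapcp2, by less than the spread between arrays. Its intensity was 91.5, 51.9 and 72.2 in gapcp1gapcp2 replicates 1, 2 and 3, against 78.0, 99.5 and 77.3 in wild type replicates 1, 2 and 3. The lower 2 of the mutant arrays lay below all wild type arrays, and mutant replicate 1 lay above 2 of them. SAG101 averaged 71.9 ± 19.8 in gapcp1gapcp2 and 84.9 ± 12.6 in wild type (SD, n = 3 each). The log2 difference was -0.22 with a 95% interval of -0.66 to 0.23, which spans ratios from 0.63 to 1.17. It ranged from -0.38, without gapcp1gapcp2 replicate 1, to -0.045, without gapcp1gapcp2 replicate 2. The constant of 16 added before the logarithm is not small beside these intensities and shrinks the fold change. With a constant of 64 the difference was -0.14.

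**Figure D1:**
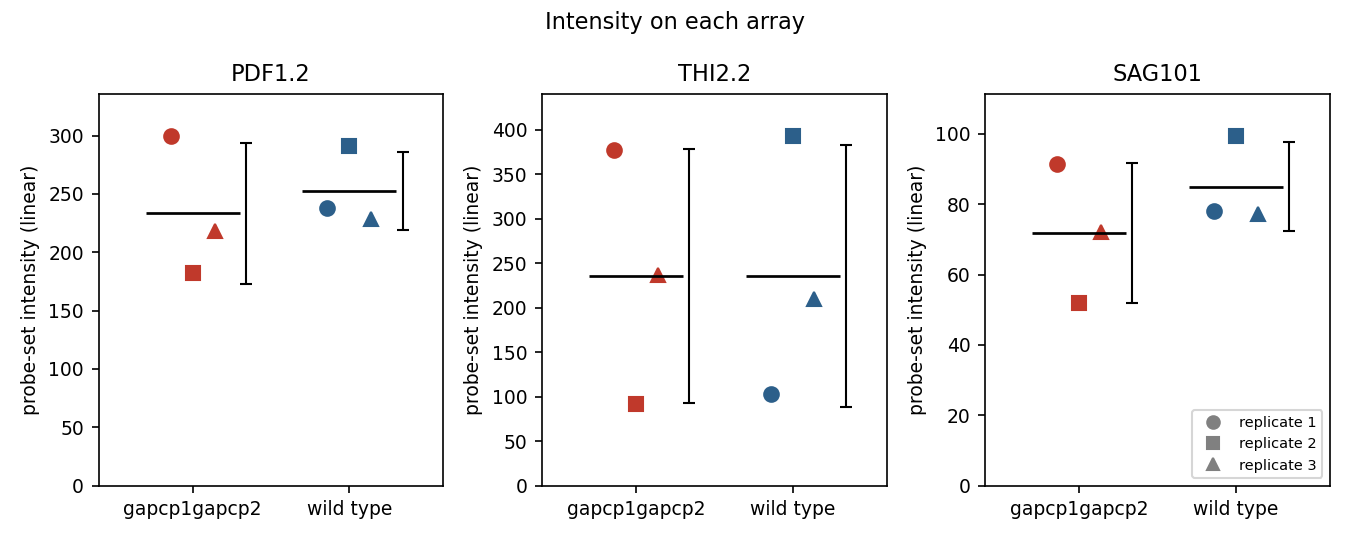
Probe-set intensity (linear, from 0) of PDF1.2, THI2.2 and SAG101 on each array, gapcp1gapcp2 left and wild type right; symbols give the replicate, the line the mean and the bar the SD (n = 3). The genotypes overlap in every panel, and THI2.2 runs from 91.9 to 377.6 in gapcp1gapcp2 and from 102.7 to 393.4 in wild type.

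The array as a whole gave no call between the genotypes. Of 15922 probe sets tested with limma, 0% passed a Benjamini-Hochberg adjusted threshold of 0.05. Before adjustment 272 fell under 0.05, or 1.71%. That is fewer than a threshold of 0.05 gives on average when no probe set differs. All arrays of one genotype lay on one side of the other for 6.27% of the probe sets, and for 0 of PDF1.2, THI2.2 and SAG101. The median log2 difference over all probe sets tested was -0.0031, and the median of its size, regardless of sign, was 0.077. A larger difference in either direction than that of PDF1.2 occurred in 29.9% of probe sets, than that of THI2.2 in 90.9% and than that of SAG101 in 11.5%. The share of the variance between arrays that lay between genotypes was 7.56% in PDF1.2, 0.0063% in THI2.2 and 20.2% in SAG101. With 3 arrays per genotype, a share like that of SAG101 is about the average when genotype has no effect. The shares are therefore descriptions and do not show a genotype effect.

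The spread between arrays of one genotype was where THI2.2 departed from the other 2 genes. The SD within genotype, pooled over both genotypes on the log2(intensity + 16) scale, was 0.92 for THI2.2, 0.27 for PDF1.2 and 0.27 for SAG101. The SD of THI2.2 was thus 3.40 times that of PDF1.2 and 3.46 times that of SAG101. Over all probe sets tested the median SD was 0.165. THI2.2 ranked 57th by this SD of the 15922 probe sets, whereas PDF1.2 ranked 3026th and SAG101 3185th. Dim probe sets scatter more, so each gene was also set beside probe sets whose mean lay within 0.5 log2 units of its own. There the SD of THI2.2 exceeded that of 99.7% of 4161 probe sets, PDF1.2 that of 87.9% of 4016 and SAG101 that of 67.5% of 4065.

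The scatter of THI2.2 was alike in both genotypes, while that of the other 2 genes was wider in the mutant. The highest THI2.2 array exceeded the lowest 4.11-fold in gapcp1gapcp2 and 3.83-fold in wild type, and the SD was 0.95 in gapcp1gapcp2 and 0.89 in wild type on the log2 scale. For PDF1.2 the highest over the lowest was 1.65 in gapcp1gapcp2 and 1.27 in wild type, and the SD was 0.34 in gapcp1gapcp2 and 0.18 in wild type. For SAG101 it was 1.76 in gapcp1gapcp2 and 1.29 in wild type, with an SD of 0.33 in gapcp1gapcp2 and 0.17 in wild type. Whether the spreads differ between genotypes was not tested. Over all 6 arrays the highest THI2.2 intensity was 4.28 times the lowest, and a ratio at least that large occurred in 155 of the 15903 tested probe sets whose lowest value was above 0.

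**Figure D2:**
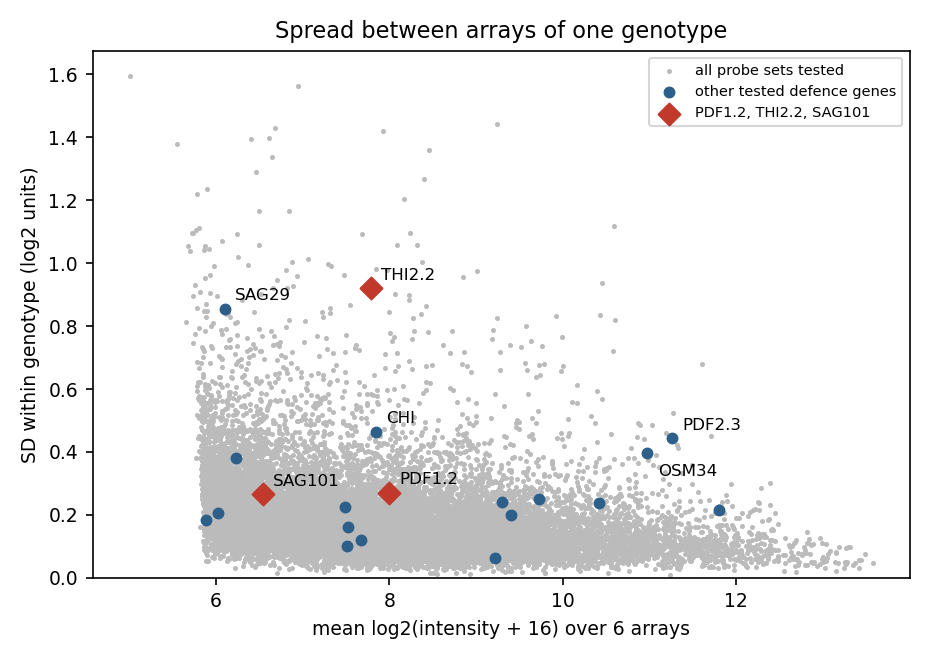
SD within genotype (log2 units) against the mean log2(intensity + 16) over 6 arrays for the 15922 probe sets tested, with defence genes marked. THI2.2 at 0.92 lies above nearly all probe sets of its brightness, and PDF1.2 and SAG101, both at 0.27, lie within the cloud.

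The 3 genes were high and low in the same arrays. In gapcp1gapcp2, replicate 1 was the highest, replicate 3 the middle and replicate 2 the lowest array for each of the 3 genes. In wild type, replicate 2 was the highest array for each of them. The lowest wild type array was replicate 1 for THI2.2 and replicate 3 for PDF1.2 and SAG101, where replicates 1 and 3 were close. On the log2 scale gapcp1gapcp2 replicate 1 exceeded replicate 2 by 1.87 for THI2.2, 0.67 for PDF1.2 and 0.66 for SAG101. Wild type replicate 2 exceeded replicate 1 by 1.79 for THI2.2, 0.27 for PDF1.2 and 0.30 for SAG101. This pattern was common on the array and is not particular to these genes, since gapcp1gapcp2 replicate 1 and wild type replicate 2 were each the highest of their genotype in 3367 probe sets, 21.1% of those tested. The full order of THI2.2 within both genotypes was shared by 8.14% of probe sets, and that of PDF1.2 and SAG101 by 7.25%.

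The summed root markers ran the other way over the same arrays. Of 5 root markers 4 had a named probe set, 0 of these were at or below 0 in any array, and their summed intensity was 5004, 7123 and 6164 in gapcp1gapcp2 replicates 1, 2 and 3, against 7548, 5440 and 5848 in wild type replicates 1, 2 and 3. The sum was thus lowest where THI2.2 was highest, and highest where THI2.2 was lowest, in each genotype. By gene, 3 of the 4 were lowest of their genotype in gapcp1gapcp2 replicate 1 and wild type replicate 2, namely PYK10, EXPA18 and NAI2, against 16.4% of all probe sets tested. The root hair expansin gene EXPA7 was not, with 47.3 in wild type replicate 2 and 44.5 in wild type replicate 3. PYK10, the beta-glucosidase of root ER bodies and the largest part of that sum, had 4073, 5514 and 4890 in gapcp1gapcp2 replicates 1, 2 and 3, against 6109, 4383 and 4649 in wild type replicates 1, 2 and 3. The 2 leaf markers with a named probe set, of 5, summed to 17726, 16998 and 16743 in gapcp1gapcp2 replicates 1, 2 and 3. In wild type replicates 1, 2 and 3 they summed to 18629, 16617 and 16771. The leaf sum was thus also highest in wild type replicate 1 and lowest in wild type replicate 2. In gapcp1gapcp2 it was highest in replicate 1, where the root sum was lowest. Whole seedlings were pooled tissue, so fewer cells of a type and less RNA per cell cannot be told apart. The part of root content in the spread of THI2.2 was not tested.

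The genes whose profile over the 6 arrays was most like that of each gene were ranked by Pearson r on the log2 scale, among 3213 genes with an SD of at least 0.2 over the arrays. These values are descriptions over 6 arrays that share growth, labelling and scaling, picked as the highest of many. For THI2.2 they were AT1G12030 (r of 0.999), AT1G09500 (0.996) and PYE (0.996), a transcription factor gene of the iron deficiency response. PYE had 234.8, 83.1 and 159.3 in gapcp1gapcp2 replicates 1, 2 and 3, against 90.3, 242.7 and 138.8 in wild type replicates 1, 2 and 3, the same order as THI2.2. AT1G12030 scattered more than THI2.2, with an SD within genotype of 1.02, and had a log2 difference between genotypes of -0.0037. For PDF1.2 the closest were AT1G73630 (0.992), AT1G63610 (0.986) and AT5G23330 (0.983), and for SAG101 they were AT5G46295 (0.992), AT5G42310 (0.991) and AT3G30300 (0.985). Apart from PYE the gene table gives these only as locus names.

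The other defensins gave no call either. Of 14 listed defensin genes besides PDF1.2, 11 had a one-gene probe set, 6 passed the filter on low intensity, and 0 of those 6 passed the test. Their log2 differences ran from -0.12 to 0.16 with a median of -0.068, beside -0.0031 over all probe sets tested. PDF1.2b, a near-identical copy of PDF1.2, had 977.0, 829.9 and 835.0 in gapcp1gapcp2 replicates 1, 2 and 3, against 802.1, 976.0 and 614.7 in wild type replicates 1, 2 and 3. It was high in the same arrays as PDF1.2, but its log2 difference was 0.16 (95% interval -0.20 to 0.52), on the other side of 0 from that of PDF1.2. Its probe set carries a suffix that Affymetrix gives where some probes may also bind other sequences, so the 2 copies may not be fully separated. PDF1.2c, the neighbour of PDF1.2 on its chromosome, was not analysed here.

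The 4 PDF2 defensins that passed the filter were highest of their genotype neither in gapcp1gapcp2 replicate 1 nor in wild type replicate 2, unlike PDF1.2 and THI2.2. PDF2.3 (LCR68) had 1833, 3290 and 2560 in gapcp1gapcp2 replicates 1, 2 and 3, against 3327, 1735 and 2303 in wild type replicates 1, 2 and 3. Its order was the reverse of that of THI2.2 in both genotypes. Its log2 difference was 0.072 (95% interval -0.51 to 0.65). PDF2.2 (LCR69) was also lowest in gapcp1gapcp2 replicate 1 and wild type replicate 2, and had a log2 difference of -0.037. PDF2.1 and PDF2.5 had -0.12 and -0.10, and PDF1.1 (LCR67) had -0.098. PDF1.4, PDF2.4, PDF2.6, PDF3.1 and PDF3.2 stayed below the filter, with no value above 36.4 in gapcp1gapcp2 or 42.4 in wild type.

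Both other listed thionins passed the filter, and 0 of these 2 passed the test. THI2.1, a thionin gene known to respond to jasmonate, had 53.7, 49.2 and 42.6 in gapcp1gapcp2 replicates 1, 2 and 3, against 43.8, 42.7 and 29.1 in wild type replicates 1, 2 and 3. Its log2 difference was 0.25 (95% interval -0.22 to 0.72), at intensities where the added constant weighs heavily. THI2.1 did not share the scatter of THI2.2, with an SD within genotype of 0.18. AT1G66100, which the gene table does not name, had a mean of 1427 ± 253 in gapcp1gapcp2 and 1302 ± 184 in wild type (SD, n = 3 each) and a log2 difference of 0.12 (95% interval -0.22 to 0.47). Its SD within genotype was 0.24. Like THI2.2 it was lowest in gapcp1gapcp2 replicate 2 and wild type replicate 1, and highest in wild type replicate 2. In gapcp1gapcp2 its highest array was replicate 3 at 1584, beside 1562 in replicate 1. The Pearson r with THI2.2 over the 6 arrays was 0.90 for AT1G66100 and 0.016 for THI2.1.

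Genes of the surrounding pathways were few in the probe table, and 0 of them passed. The EDS1 node has 10 listed genes, of which only 2 had a one-gene probe set. Of these SAG101 passed the filter, and AT3G48080 was below it, at 18.6 ± 9.67 in gapcp1gapcp2 and 23.9 ± 5.16 in wild type (SD, n = 3 each). None of the 15 salicylic acid genes had a named probe set. Of 26 jasmonate and ethylene genes 1 was tested, EIN3, the transcription factor that ethylene stabilises, with 557 ± 19.2 in gapcp1gapcp2 and 601 ± 31.1 in wild type (SD, n = 3 each) and a log2 difference of -0.11 (95% interval -0.31 to 0.10). EIN3 varied little between arrays, with an SD within genotype of 0.062.

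Of 14 senescence genes 3 were tested, and 0 passed. SAG29, a sugar transporter gene that rises in senescing leaves, scattered nearly as much as THI2.2, with an SD within genotype of 0.86. Its intensity was 106.9, 11.9 and 57.4 in gapcp1gapcp2 replicates 1, 2 and 3, against 45.4, 98.7 and 43.9 in wild type replicates 1, 2 and 3. The order of its arrays was that of PDF1.2 and SAG101 in both genotypes. Its log2 difference was -0.25 (95% interval -1.39 to 0.89). WRKY53, a regulator of leaf senescence, was the 1 gene of the 17 tested besides PDF1.2, THI2.2 and SAG101 whose genotypes did not overlap, a share near the 6.27% of all probe sets. It stood at 183.4, 205.1 and 174.6 in gapcp1gapcp2 replicates 1, 2 and 3 against 154.9, 136.5 and 151.9 in wild type replicates 1, 2 and 3. Its log2 difference was 0.31 (95% interval 0.060 to 0.57), and its adjusted p from limma was 1.00. WRKY6 had a log2 difference of -0.030.

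A further 8 defence genes were taken from the probe table by the words in their names, of which 5 passed the filter and 0 passed the test. OSM34, an osmotin of the thaumatin-like family, had 1525, 2744 and 2130 in gapcp1gapcp2 replicates 1, 2 and 3, against 2493, 1494 and 1912 in wild type replicates 1, 2 and 3. The chitinase gene CHI had 158.7, 301.4 and 221.2 in gapcp1gapcp2 replicates 1, 2 and 3, against 302.6, 144.1 and 203.7 in wild type replicates 1, 2 and 3. Both ran opposite to THI2.2 in each genotype. The class V chitinase gene ChiC, with an SD within genotype of 0.24, was likewise lowest in gapcp1gapcp2 replicate 1 and wild type replicate 2. RTE1, of ethylene receptor function, had a log2 difference of 0.046, and PR-1-LIKE had -0.17. LCR24, JRG21 and JMT stayed below the filter, which acts on the mean over all arrays. JRG21 was not dim in every array, with 87.3, 26.5 and -5.9 in gapcp1gapcp2 replicates 1, 2 and 3. In wild type replicates 1, 2 and 3 it had 26.5, 24.0 and 27.0.

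Over all lists, 17 defence genes other than PDF1.2, THI2.2 and SAG101 were tested, with 8 fitted above 0, 9 below and a median log2 difference of -0.0054. At an unadjusted p under 0.05 there was 1 of the 17, WRKY53, against 1.71% of all probe sets tested. By array, 3 of the 17 were highest in both gapcp1gapcp2 replicate 1 and wild type replicate 2, against 21.1% of all probe sets tested, namely PDF1.2b, SAG29 and RTE1. In those same arrays 6 of the 17 were lowest, against 16.4% of all probe sets tested, namely PDF2.2, PDF2.3, WRKY6, ChiC, CHI and OSM34.

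**Figure D3:**
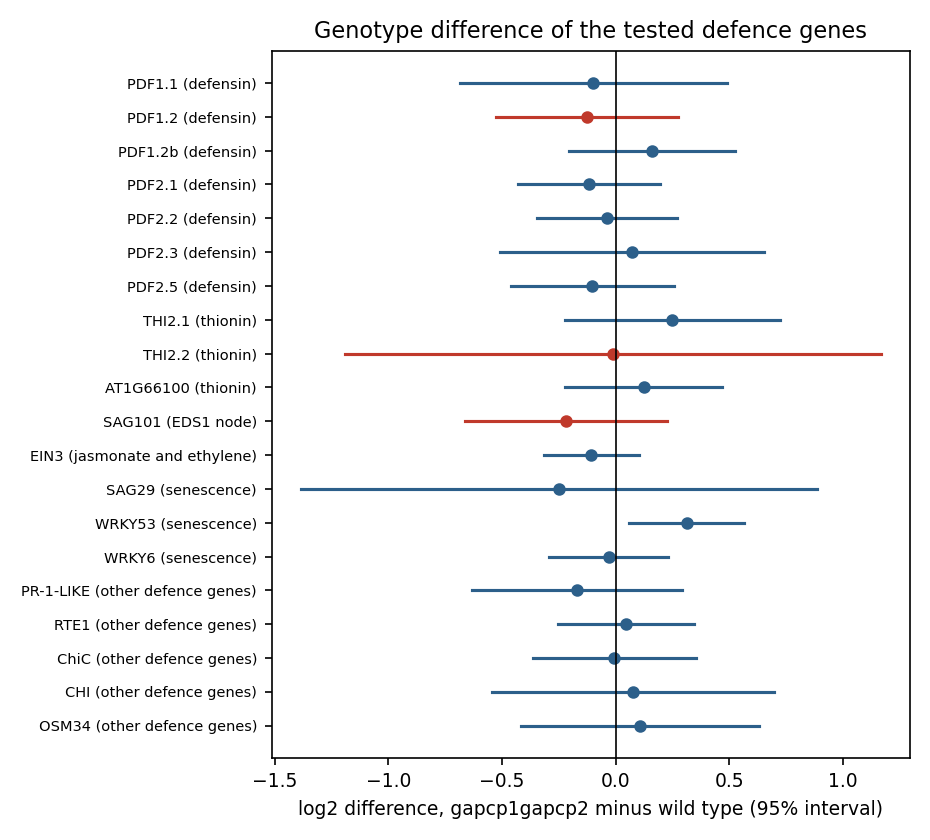
Log2 difference, gapcp1gapcp2 minus wild type, with its 95% interval (limma) for the 20 tested defence genes, PDF1.2, THI2.2 and SAG101 in red. The intervals include 0 except that of WRKY53 (0.060 to 0.57), and those of THI2.2 and SAG29 are the widest.

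**Figure D4:**
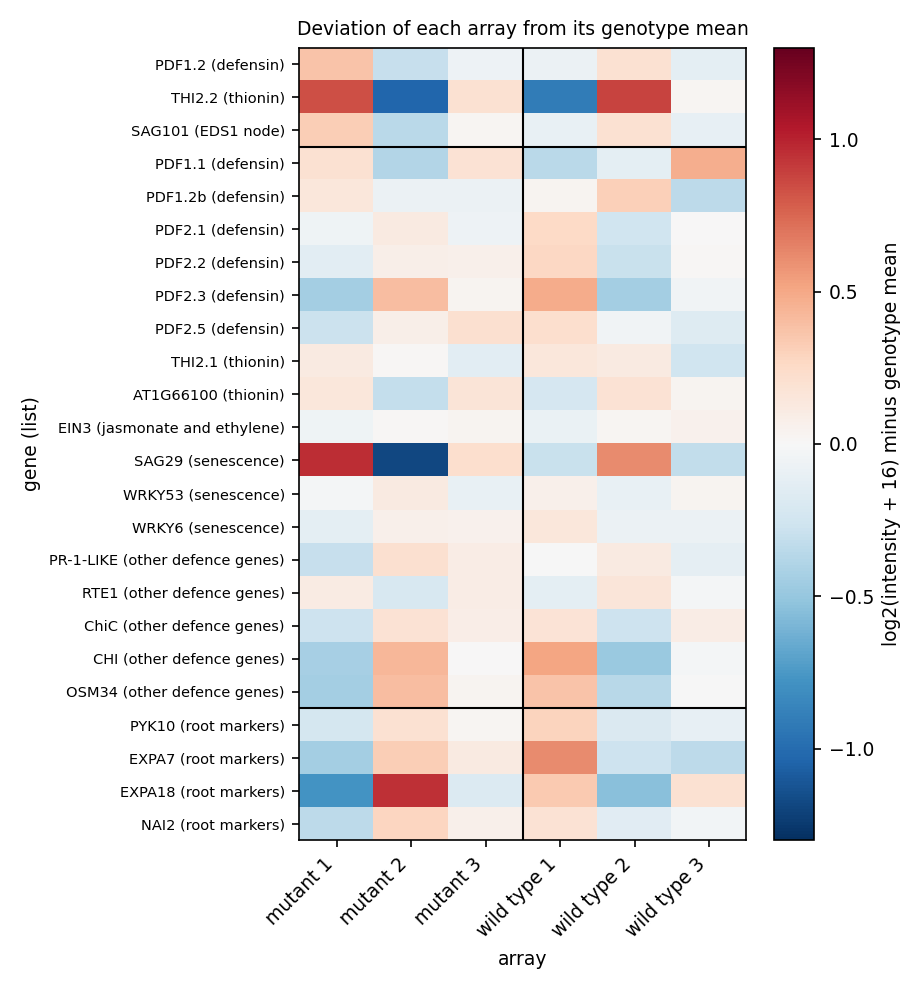
Deviation of each array from its genotype mean, in log2(intensity + 16) units (colour), for PDF1.2, THI2.2 and SAG101, the other tested defence genes and 4 root markers; gapcp1gapcp2 arrays are left of the line. THI2.2 and SAG29 are highest in mutant 1 and wild type 2, where PDF2.3, CHI, OSM34 and EXPA18 are lowest of their genotype.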

How the data were processed

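The deposited table holds 1 linear intensity for each probe set and array. Per the submitters' processing notes GCOS, the Affymetrix software, was used, with no version, summarisation or scaling stated in the sources used here. Between 1.74% and 3.45% of the deposited intensities per array were below 0, so something had been subtracted, and the number of arrays limits the precision. Genes were named from the platform's probe table and a RefSeq gene table (TAIR10.1). The table gave 1 gene for 13513 of 22746 probe sets, several for 503 and none for 8730. No sequence or coordinate is given.

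Negative values were set to 0, log2(value + 16) was taken, and the dimmest 30% of the probe sets, by their mean, were dropped. Genotypes were compared with limma 3.58.1 (R 4.3.3), using eBayes with a trend on intensity, as a two-sided test, Benjamini-Hochberg adjusted over 15922 probe sets, threshold 0.05. The fit was tried on simulated data in which each probe set varied independently. In the real arrays the deviations were correlated across probe sets, so the simulation does not check the fit for such data. Per the labels, 3 sets of plants per genotype grew in parallel, without a set being tied to a number. The intervals rest on the spread between these samples after eBayes drew it toward that of probe sets of like intensity. They are therefore narrower than the own spread of a widely scattered gene such as THI2.2 would give. Alternatives were filters, normalizations, constants, eBayes settings, array weights, a replicate block and leaving out each array.

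The genes and gene lists were chosen with earlier results of these data known, and the last list of 8 after the probe table was seen. Named were PDF1.2, THI2.2 and SAG101, all defensins, thionins and EDS1 node genes with a one-gene probe set, the 4 brightest of the other lists, all 8 of the last list, and the 3 most alike genes of each. The planned counts of protein features and promoter motifs were not made, for want of sequences here. Figures were drawn with matplotlib 3.10.9.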

Additional observations from a re-analysis of the deposited data

How the results depend on the processing

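Under all 18 alternatives limma placed 0 probe sets past the threshold, and the 272 with an unadjusted p under 0.05 were 619 when no filter was used and 117 when the filter took 50%, or 1.71%, 2.72% and 1.03% of those tested, and the cause was not tested. With the replicate number as a block, 0 passed and 136 had an unadjusted p under 0.05. The deviations of arrays with the same number correlated negatively across probe sets (-0.58, -0.48 and -0.13), so the numbers were not treated as pairs. The block left the estimates at -0.13 for PDF1.2, -0.012 for THI2.2 and -0.22 for SAG101.

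With 1 array left out the difference ranged from -0.31 to 0.025 for PDF1.2, from -0.46 to 0.50 for THI2.2 and from -0.38 to -0.045 for SAG101, and the 95% interval included 0 each time. Under the other alternatives the ranges were -0.14 to -0.10, -0.019 to 0.13 and -0.27 to -0.14 in the same order, with 0 inside each interval. The sign of THI2.2 turned with array weights (0.13). SAG101 gave no value with the lowest 50% left out, being below that filter. The spread of THI2.2 ran from 0.77 to 1.06 with 1 array left out and from 0.74 to 1.00 otherwise. The spread of PDF1.2 ran from 0.17, without gapcp1gapcp2 replicate 1, to 0.31, and that of SAG101 from 0.18 to 0.31. With a constant of 64 the spread of SAG101 was 0.17, a constant close to its intensity. Dim signals limit SAG101, THI2.1, SAG29 and AT1G12030.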
